A study of Oryza sativa with 8 samples.

Results

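Tonoplast intrinsic proteins (TIPs) are the aquaporins of the vacuolar membrane, and 5 rice TIP loci were followed here in rice roots at 28 °C and 10 °C, in 1 line that tolerates cold and 1 that does not. The 5 were taken by locus ID, as given with the set, from the 42189 gene IDs of the authors' 4 deposited comparison tables: TIP1;1 (LOC_Os03g05290), TIP1;2 (LOC_Os01g74450), TIP2;1 (LOC_Os02g44080), TIP2;2 (LOC_Os06g22960) and TIP4;1 (LOC_Os05g14240). All 5 were present in every table and passed the authors' filter on low means. By their IDs they lie on chromosomes 3, 1, 2, 6 and 5. The tables hold no gene names. The RefSeq gene table (assembly ASM3414082v1) has 1 gene for each of the 5 TIP names on the chromosome that the locus ID gives, but it does not hold the IDs, so that the match of name to locus rests on the set as given.

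The series holds 8 root RNA libraries of indica rice, 2 for each of 4 groups, with 4 plants per library. Both lines carry IRGA names with a common stem, and the labels give them as cold-tolerant and cold-sensitive. All plants were grown hydroponically at 28 °C to about 30 days and 3 leaves, and then either stayed at 28 °C or went to 10 °C. Time at 10 °C is uncertain: it is 24 h in the extraction protocol and up to 10 days in the sample titles. No transgene or allele is named in the labels.

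Each plant cell keeps most of its water in the vacuole, and TIPs let water cross the membrane around it, so that the vacuole can buffer the cytoplasm when water supply changes. TIP1 and TIP2 proteins are the abundant vacuolar aquaporins of growing and mature vegetative tissue, whereas TIP3 proteins belong to the protein storage vacuoles of seeds. In Arabidopsis, members of TIP1 also conduct urea and hydrogen peroxide, and members of TIP2 conduct ammonia. Chilling lowers the water uptake of roots, and aquaporins of both the plasma membrane and the tonoplast are studied for that reason.

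Levels are given as normalised read counts per group, computed from the authors' mean over all libraries and their fold changes. Values per library were not analysed here. The size factor, a measure of relative depth, was 1.10 to 1.25 in the libraries at 28 °C and 0.679 to 0.991 at 10 °C. At that depth the smallest group sum among the 5 loci was 576 reads, TIP1;2 in sensitive roots at 28 °C, with a counting error of 4.17%. The fitted variation between libraries of a group was larger. Solved from the deposited standard errors, its coefficient of variation ran from 25.2% for TIP2;1 to 37.8% for TIP1;2. In tolerant roots the standard error of the cold response was larger for the latter than for 94.1% of the 3746 genes of like mean (within 1.5-fold), and for TIP1;1, which had the least such excess of the 5, than for 77.8% of 108 such genes. A change in the level of a transcript in whole roots may come from fewer cells of a type or from less RNA per cell, and these cannot be told apart.

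**Figure D1:**
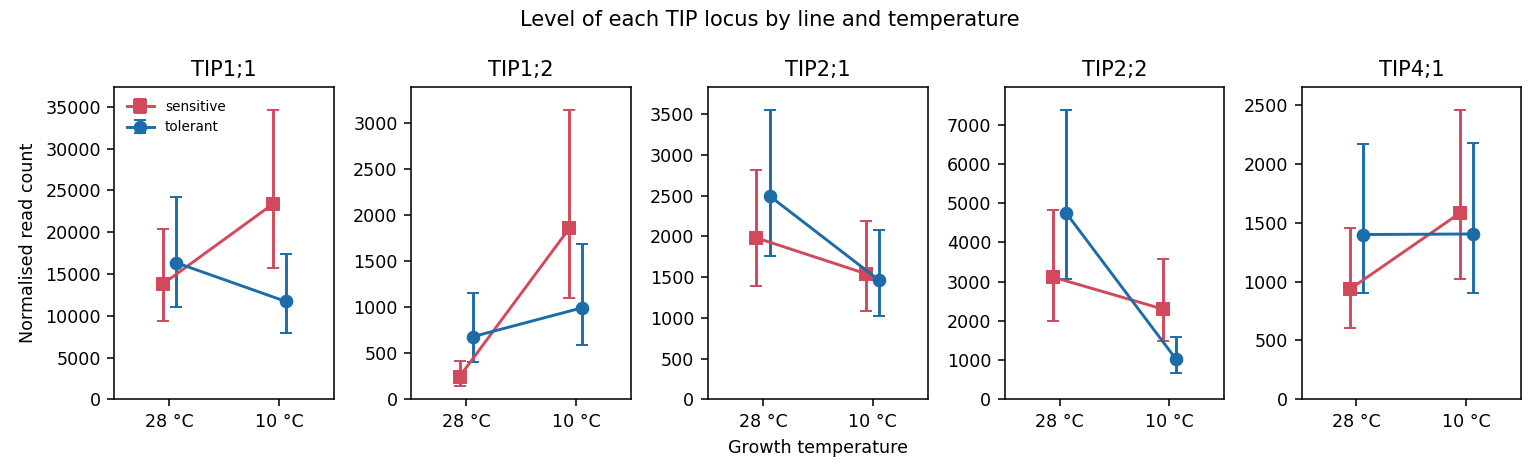
Normalised read count of each TIP locus (vertical axes from 0, each with its own scale) at 28 °C and 10 °C in sensitive (red squares) and tolerant (blue circles) roots, and bars are 95% intervals from the dispersion of the deposited fit. The steepest lines are the rise from 246 to 1855 in the second panel (sensitive roots) and the fall from 4746 to 1024 in the fourth (tolerant roots), and in every panel tolerant roots are the higher at 28 °C and the lower at 10 °C.

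In the cold, TIP1;2 rose in sensitive roots and TIP2;2 fell in tolerant roots, and these were the only calls among the 5 loci in both cold comparisons (adjusted p below 0.05, Wald test of the deposited tables). In sensitive roots 1 of 5 loci rose and 0 fell, where 22.8% of all 26199 genes tested rose and 21.8% fell. In tolerant roots 0 of 5 rose and 1 fell, where 20.3% of all genes rose and 19.7% fell. In either direction, 1 of 5 was thus called in each line, beside 44.5% of all genes in sensitive and 40.0% in tolerant roots. Centred on the 1000 genes of highest mean, whose median log2 change was 0.29 in sensitive and 0.35 in tolerant roots, the share of rises among all calls went from 51.1% to 37.3% and from 50.7% to 32.2%.

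The TIP1 class, once called gamma-TIP, has 2 loci in the set. TIP1;2 stood at 246 normalised counts in sensitive roots at 28 °C and at 1855 at 10 °C, and at 680 and 994 in tolerant roots. The lowest of the 4 groups was thus sensitive roots at 28 °C and the highest the same line at 10 °C. In sensitive roots the log2 change was 2.91 ± 0.55 (SE) in the authors' deposited table, a 7.53-fold rise (95% interval 3.57 to 15.9, adjusted p = 1.01e-06), which exceeded that of 92.3% of all genes tested. This call ended when the statistic was referred to a t distribution with 4 degrees of freedom (adjusted p = 0.0538) or divided by its robust spread over all genes (0.649). These settings cut the calls over all genes in sensitive roots from 11670 to 2438 and to 265. The robust spread includes the many responding genes. In tolerant roots the log2 change was 0.55 ± 0.55 (SE, adjusted p = 0.446) in the authors' deposited table, with a fold between 0.695 and 3.08. Ordered by level, the groups ran from sensitive roots at 10 °C through tolerant roots at 10 °C and at 28 °C to sensitive roots at 28 °C, and no neighbours in that order differed past the threshold in the deposited tables.

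TIP1;1 stood at 13792 normalised counts in sensitive and 16357 in tolerant roots at 28 °C, and at 23337 and 11716 at 10 °C. The line with the higher level at 28 °C was therefore the lower at 10 °C. Its log2 change in the cold was 0.76 ± 0.41 (SE, adjusted p = 0.120) in sensitive and −0.48 ± 0.41 (SE, adjusted p = 0.360) in tolerant roots in the authors' deposited tables. The 95% intervals of the fold, 0.971 to 2.95 and 0.411 to 1.25, both include no change. At its standard error, a change of this locus would have had to reach 1.91-fold in sensitive and 1.93-fold in tolerant roots to be called.

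Both TIP2 loci, of the delta-TIP class, were lower at 10 °C than at 28 °C in each line, and 1 of these 4 differences passed the test. TIP2;2 stood at 4746 normalised counts in tolerant roots at 28 °C and at 1024 at 10 °C, and at 3114 and 2300 in sensitive roots. Tolerant roots thus held both the highest and the lowest of the 4 levels. The log2 change in tolerant roots was −2.21 ± 0.46 (SE) in the authors' deposited table, a 4.64-fold fall (adjusted p = 1.17e-05), with the level at 10 °C between 0.116 and 0.402 times that at 28 °C (95% interval). It was lower than the change of 88.0% of all genes tested. The call ended with the t distribution (adjusted p = 0.0712) and with the robust spread (0.654). With the t distribution 0 of all genes kept a call in tolerant roots (from 10485), and with the robust spread 263 were called. That spread includes the many responding genes. In sensitive roots the log2 change was −0.44 ± 0.46 (SE, adjusted p = 0.457) in the authors' deposited table. No neighbours in the order of levels, tolerant and sensitive roots at 28 °C followed by sensitive and tolerant roots at 10 °C, differed past the threshold in the deposited tables.

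TIP2;1 stood at 1983 normalised counts in sensitive and 2498 in tolerant roots at 28 °C, and at 1542 and 1460 at 10 °C. Both levels at 10 °C lay under both at 28 °C. The log2 change was −0.77 ± 0.37 (SE, adjusted p = 0.0776) in tolerant and −0.36 ± 0.37 (SE, adjusted p = 0.438) in sensitive roots in the authors' deposited tables. Centred on the 1000 genes of highest mean, the change in tolerant roots became −1.12 on the log2 scale and passed (adjusted p = 0.00741).

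TIP4;1, the only member outside TIP1 and TIP2, stood at 1399 normalised counts in tolerant roots at 28 °C and at 1404 at 10 °C, and at 936 and 1580 in sensitive roots. The 2 levels in tolerant roots lay within the range spanned by sensitive roots. Its log2 change was 0.01 ± 0.46 (SE, adjusted p = 0.995) in tolerant and 0.76 ± 0.46 (SE, adjusted p = 0.172) in sensitive roots in the authors' deposited tables. The 95% interval of the fold in tolerant roots ran from 0.539 to 1.87, and the sign there turned (−0.34) when centred on the 1000 genes of highest mean.

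Averaged over both lines, which uses all 8 libraries, 1 TIP locus rose in the cold and 2 fell by the Wald test built from both deposited cold tables, where 27.9% of all genes rose and 28.7% fell. The share of rises among all calls went from 49.3% to 36.4% when centred on the 1000 genes of highest mean. TIP1;2 had a mean log2 change of 1.73 ± 0.39 (SE, adjusted p = 2.9e-05) and TIP2;2 one of −1.33 ± 0.32 (SE, adjusted p = 0.000138). In single lines TIP1;2 was called only in sensitive roots (2.91, against 0.55 in tolerant roots). TIP2;2 was called only in tolerant roots (−2.21, against −0.44 in sensitive roots). Both averaged calls held with the t distribution of 4 degrees of freedom (adjusted p = 0.04 and 0.0476). They ended with the robust spread (adjusted p = 0.877 and 0.928), which cut the calls over all genes from 14816 to 306. That spread includes the many responding genes, as 60.6% of all genes had an unadjusted p below 0.05 in the averaged response. TIP2;1, at −0.57 ± 0.26 (SE), passed by little (adjusted p = 0.0495), and its call ended under 5 of the 7 alternatives tried. TIP4;1 was at 0.38 ± 0.32 (SE, adjusted p = 0.316). TIP1;1 was at 0.14 ± 0.29 (SE, adjusted p = 0.704), and its sign turned when centred on the 1000 genes of highest mean.

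**Figure D2:**
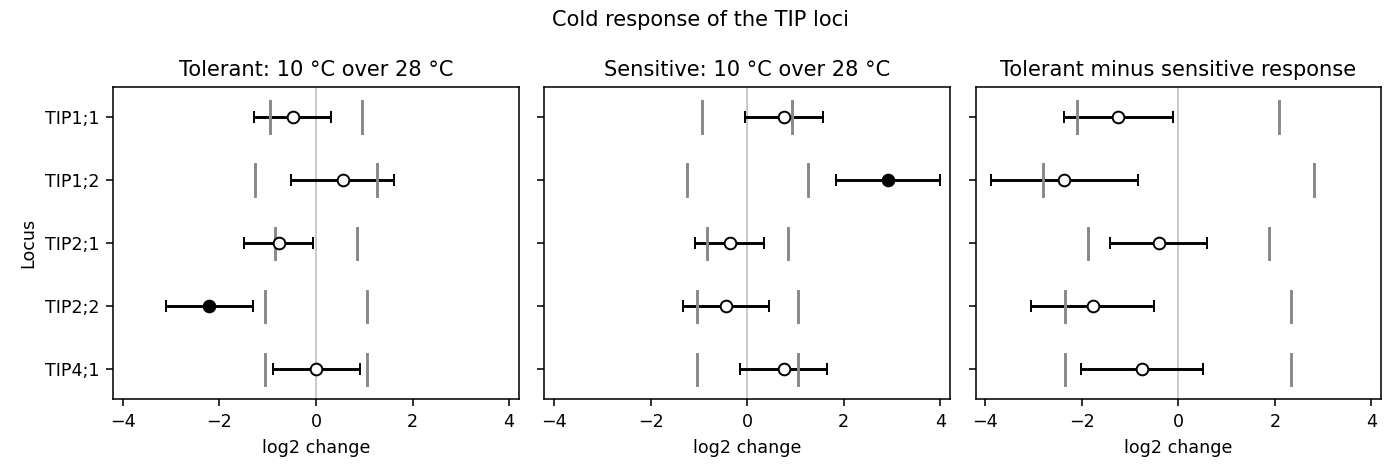
log2 change of each TIP locus in the cold in tolerant and in sensitive roots and the difference of both responses, with 95% intervals. Filled points passed the test at an adjusted p below 0.05, and the grey ticks mark the smallest change of that locus that would have been called. The filled points at −2.21 in tolerant roots and 2.91 in sensitive roots lie beyond their ticks, and in the right panel all 5 points lie left of 0 and none beyond its tick.

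Whether the lines differed in their cold response was tested on the difference of both log2 changes, since a call in 1 line and not in the other does not show it. The response was the more negative in tolerant roots for all 5 TIP loci, where 48.4% of the 26199 genes tested had that sign, yet 0 of 5 passed the derived Wald test (0.622% of all genes passed). Without adjustment, 3 of 5 had a p below 0.05, against 8.05% of all genes. The 5 loci were chosen with earlier results of these data known, so these shares do not test them as a set. The difference was −2.36 ± 0.78 (SE) on the log2 scale for TIP1;2 (adjusted p = 0.159), more negative than in 94.7% of genes. For TIP2;2 it was −1.78 ± 0.65 (SE, adjusted p = 0.263) and for TIP1;1 −1.24 ± 0.58 (SE, adjusted p = 0.528). TIP4;1 was at −0.75 ± 0.65 (SE, adjusted p = 0.917) and TIP2;1 at −0.41 ± 0.52 (SE, adjusted p = 0.970). To be called with 2 libraries a group, an estimated difference had to reach between 3.65-fold and 6.97-fold, depending on the locus. These sizes apply to the estimate and set no limit on the true difference. The 95% intervals of the last 2 loci include 0, the narrower of them running from −1.43 to 0.60. The signs of the 5 differences were the same under both centrings, which moved the difference by 0.03 and 0.09 on the log2 scale.

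Between the lines at a given temperature, no TIP locus passed the deposited test. At 28 °C all 5 were higher in tolerant roots, where 54.0% of all 27576 genes tested were lower. Of the 5, 0 were called (0.765% of all genes were) and 1 had an unadjusted p below 0.05 (3.78% of all genes). That locus was TIP1;2, at 246 normalised counts in sensitive and 680 in tolerant roots, a log2 difference of 1.46 ± 0.55 (SE, adjusted p = 0.498) in the authors' deposited table. It passed when the statistic was divided by its robust spread (adjusted p = 0.00403), which raised the calls over all genes from 211 to 829. The other 4 had log2 differences of 0.25 to 0.61 in the authors' deposited table. At 10 °C all 5 were lower in tolerant roots, where 50.1% of all genes were. Of the 5, again 0 were called (2.90% of all genes were) and 2 had an unadjusted p below 0.05 (12.9% of all genes). The difference in cold response is the line difference at 10 °C minus that at 28 °C, so its signs and these are not separate results.

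TIP2;2 at 10 °C stood at 1024 normalised counts in tolerant against 2300 in sensitive roots, a log2 difference of −1.17 ± 0.46 (SE, adjusted p = 0.175) in the authors' deposited table. For TIP1;1 the levels were 11716 against 23337, a log2 difference of −0.99 ± 0.41 (SE, adjusted p = 0.214) in the authors' deposited table. TIP1;2 was at −0.90 ± 0.55 (SE), TIP4;1 at −0.17 ± 0.46 (SE) and TIP2;1 at −0.08 ± 0.37 (SE) in the authors' deposited table. Of all genes tested in both line comparisons, 24.9% were, as these 5, higher in tolerant roots at 28 °C and lower at 10 °C, and 18.8% of those with a mean of at least 100. Averaged over both temperatures, the line difference lay between −0.37 and 0.28 on the log2 scale, and 0 of 5 loci passed the derived Wald test (2.05% of all genes did), with 0 of 5 at an unadjusted p below 0.05.

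**Figure D3:**
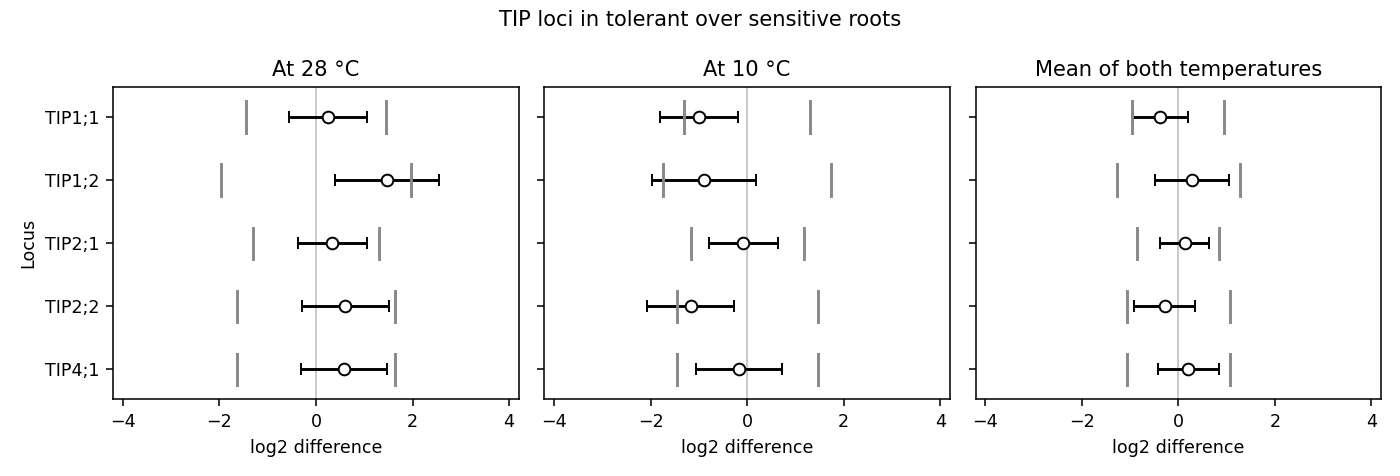
log2 difference of each TIP locus in tolerant over sensitive roots at 28 °C, at 10 °C and averaged over both, with 95% intervals. Open points did not pass, and grey ticks mark the smallest difference that would have been called. The points lie right of 0 at 28 °C (0.25 to 1.46), left of 0 at 10 °C (−1.17 to −0.08) and on both sides of 0 in the mean.

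The other aquaporins, and the proton pumps, root loci and shoot photosynthesis loci below, were taken as loci written from general knowledge of rice. No reference used here pairs these IDs with names. Of 5 further TIP loci, those of the TIP3, TIP4 and TIP5 classes, all had means of 14.8 normalised counts or less, and 4 were tested in the cold comparisons. Of these 4, 0 rose and 0 fell in either line, where 44.5% of all genes were called in sensitive and 40.0% in tolerant roots. By the deposited Wald test 1 of 4 had an unadjusted p below 0.05 in each line, beside 50.9% of all genes in sensitive and 47.4% in tolerant roots. The standard errors of these 4 loci ran from 0.95 to 2.44 on the log2 scale, so only large changes could have been called. Among them, LOC_Os04g44570 had log2 changes of 3.59 (adjusted p = 0.0840) and 3.29 (adjusted p = 0.0670) in tolerant and sensitive roots in the authors' deposited tables. Averaged over both lines it rose by the derived Wald test, at 3.44 ± 1.15 (SE, adjusted p = 0.00648), from a mean of 8.23 normalised counts. Of all genes, 27.9% rose in that test. LOC_Os01g13120 and LOC_Os01g13130 lie side by side by their IDs, and no source used here says how reads that match both were counted.

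Plasma membrane intrinsic proteins (PIPs), which let water cross the outer membrane of the cell, moved in both directions. Of 11 PIP loci, 3 rose and 4 fell in tolerant roots, and 5 rose and 3 fell in sensitive roots in the authors' deposited tables. Of all genes, 20.3% rose and 19.7% fell in tolerant roots, and 22.8% rose and 21.8% fell in sensitive roots. The rise at LOC_Os09g36930 and the fall at LOC_Os03g64330 in sensitive roots came from means of 3.02 and 12.5 normalised counts. The difference between the lines was negative at 10 of 11 PIP loci, with a median of −0.75, against −1.24 for the 5 TIP loci and 0.03 for all genes. Of the 11, 0 passed the derived Wald test, where 0.622% of all genes passed. Of 4 listed loci of the NIPs, the class that holds silicic acid channels, 3 fell in each line and 1 rose in sensitive roots, beside the same shares of all genes. LOC_Os02g51110 is both among these 4 and among the root loci below. Whether the classes differ was not tested.

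Loci listed as tonoplast proton pumps, which drive transport into the vacuole across the same membrane, showed differences of both signs between the lines. Of 7 pump loci tested, 2 fell and 0 rose in tolerant roots in the authors' deposited table, where 19.7% of all genes fell and 20.3% rose. In sensitive roots 2 rose and 2 fell, where 22.8% of all genes rose and 21.8% fell. The difference between the lines was negative at 3 of 7 and its median was 0.29. Of the 7, 1 locus passed the derived Wald test, where 0.622% of all genes passed. It was LOC_Os06g08080, with 16370 and 986 normalised counts in sensitive roots at 28 °C and 10 °C and 14068 and 2463 in tolerant roots. Its difference was 1.54 on the log2 scale (adjusted p = 0.0279), the opposite sign to the TIP loci.

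**Figure D4:**
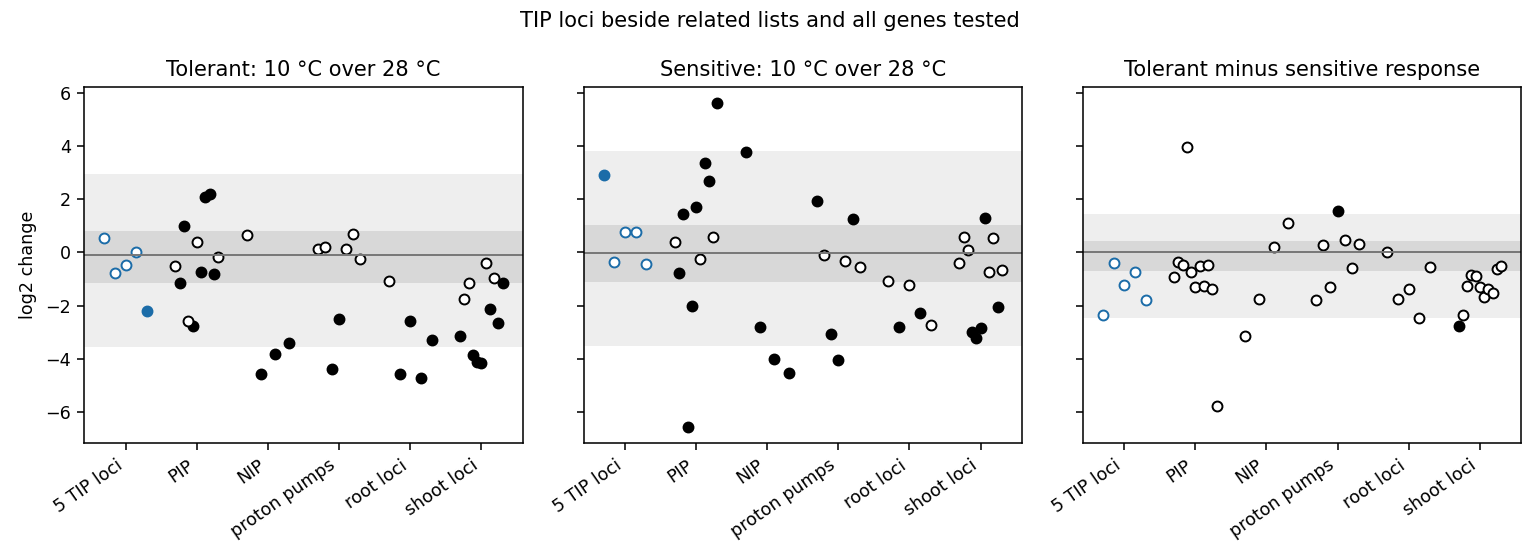
log2 change of single loci in each list in tolerant roots, in sensitive roots and as the difference of both. Blue points are the 5 TIP loci, black points other lists, and filled points passed the test. The dark and light bands hold the central 50% and 90% of all genes tested and the line is their median. All 5 TIP points and 10 of 11 PIP points lie below 0 in the right panel, as do all 11 shoot loci.

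Loci of root uptake and of shoot photosynthesis were examined as a check of the tissue. The 5 root loci, transporters of silicon, iron, manganese and nitrate, all had reads. Their summed level was 31478 normalised counts in sensitive and 50570 in tolerant roots at 28 °C, and 7063 and 4263 at 10 °C. LOC_Os02g51110, also in the NIP list, held 18411 and 29818 of these at 28 °C, and 2614 and 1257 at 10 °C. All 11 shoot photosynthesis loci had reads too, none being at 0, with sums of 7620 and 7687 at 28 °C and 5424 and 2114 at 10 °C. Of the sums at 10 °C, LOC_Os09g17740 alone held 2831 and 918. In tolerant roots 7 shoot and 4 root loci fell in the cold and 0 rose, where 19.7% of all genes fell. In sensitive roots 4 shoot and 2 root loci fell and 1 shoot locus rose, where 21.8% of all genes fell and 22.8% rose. The difference in cold response was negative at all 11 shoot loci, with a median of −1.31, and at 4 of 5 root loci, with a median of −1.36. Of the 11 shoot loci 1 passed the derived Wald test, LOC_Os01g41710 (adjusted p = 0.00942), where 0.622% of all genes passed. Of the 5 root loci 0 passed, and the root locus with the other sign was at 0.00 on the log2 scale. The part of both lists in the TIP values was not tested.

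Likeness of pattern was measured from the 2 members of highest mean, as the distance over 3 log2 contrasts, the cold response in each line and the line difference at 28 °C, among genes with a mean of at least 100. From TIP1;1, the nearest of 15028 other genes were LOC_Os01g19260 and LOC_Os01g40660, at distances of 0.13 and 0.16. Among the members TIP4;1 ranked 230, at a distance of 0.59, TIP2;1 3516, TIP2;2 10644 and TIP1;2 12111, so the other TIP1 locus was the farthest. From TIP2;2 the nearest genes were LOC_Os06g36070 and LOC_Os03g13520, both at 0.19. TIP2;1 ranked 826 there at a distance of 1.47, ahead of TIP1;1 (4357), TIP4;1 (6696) and TIP1;2 (13206). Distances rest on 4 group levels each and carry no test.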

How the data were processed

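Root RNA-seq entered as 4 comparison tables deposited by the authors, which per the file headers are DESeq2 results (its version is not stated in the labels or headers). The mean normalised signal over all 8 libraries, the log2 fold changes with their standard errors, the score (the Wald statistic) and each p-value and adjusted p-value are as deposited by the authors. The submitters' processing notes name Bowtie 0.12.7, while the tables are named for STAR. Genome build, annotation and counter: not given in the sources used here. Per the labels' protocols, poly-A RNA was sequenced in single-end reads of 50 bp.

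The 4 means were identical, and the fold changes closed as a loop to within 7.59e-14, so that all groups were in 1 fit. Genes with 1 read in 1 library gave 8 size factors and gave the sign: values above 0 stand for more RNA in the group named second (16 of 16 checks). Group levels follow from the mean and the fold changes. The dispersion of each TIP locus was solved from its standard errors and was the same from each table. The difference and the mean of both cold responses, and the mean of both line differences, were tested by Wald tests from the deposited values (normal p, Benjamini-Hochberg over all genes tested in both tables), checked on simulated data, with Python 3.11.15, pandas 2.3.3 and scipy 1.17.1. The simulation took the dispersions as known, so it could not show whether the normal p is too small with 2 libraries a group. Calls are at an adjusted p below 0.05. The labels say only that replicates are biological. The p-values measure the spread between these libraries through a dispersion fitted over all 4 groups, not that within the compared groups alone. Intervals of counting error cover counting only. All 5 loci were described; the genes nearest in pattern were the 2 nearest to each of the 2 members of highest mean. Members and lists were chosen with earlier results of these data known. The 7 alternatives changed the adjustment, the filter, the reference distribution, the spread, the scaling or the threshold.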

Additional observations from a re-analysis of the deposited data

How the results depend on the processing

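No paired analysis was possible because the tables give no values per library; for the same reason no replicate was left out in turn and no count test was refitted. Of 245 values of single loci under 7 alternatives, 232 kept their side of the threshold, 11 lost a call, 2 gained one and 0 called values changed sign. With a t distribution of 4 degrees of freedom, TIP1;2 in sensitive roots (2.91), TIP2;2 in tolerant roots (−2.21) and TIP2;1 averaged over both lines (−0.57) lost their calls (adjusted p 0.0538, 0.0712 and 0.164). Divided by the robust spread, which includes the many responding genes, TIP1;2 in sensitive roots (2.94), TIP2;2 in tolerant roots (−2.14) and the averaged responses of TIP1;2 (1.79), TIP2;1 (−0.53) and TIP2;2 (−1.28) were lost, and TIP1;2 at 28 °C (1.49) was gained. The averaged response of TIP2;1 also lost its call when adjusted over every gene with a p-value (−0.57), centred on all genes tested (−0.51) or held to an adjusted p below 0.01 (−0.57), and TIP2;1 in tolerant roots (−1.12) was called when centred on the 1000 genes of highest mean.

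Of the counts over all genes, 30 of 49 stayed within 1.5-fold. With the t distribution the calls fell from 11670 to 2438 in sensitive roots, from 14816 to 8490 in the average over lines, and to 0 in tolerant roots (from 10485), at 28 °C (from 211), at 10 °C (from 681), in the difference of responses (from 163) and in the averaged line difference (from 480). Genes above the median mean gave 7495 calls in sensitive roots, 8911 in the average over lines, 95 at 28 °C, 330 at 10 °C and 171 in the averaged line difference. The robust spread gave 265 in sensitive roots, 263 in tolerant roots, 306 in their average, 829 at 28 °C and 272 at 10 °C. An adjusted p below 0.01 gave 403 at 10 °C and 57 for the difference of responses. The t distribution raises every p-value of the same statistic, and the robust spread, the filter and the stricter threshold also change the count by their construction. Other causes were not tested.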
